A study of Mus with 96 samples.

Results

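The fatty acid elongases Elovl1, Elovl2, Elovl3 and Elovl5 and the fatty acid desaturases Fads1 and Fads2 were examined in mouse liver. The genes were taken by name, 6 of 55487 genes in the count table, and all 6 were among the 15548 genes tested, those with at least 100 reads summed over 96 libraries. Each library was 1 liver, sequenced by BRB-seq, a method that barcodes each RNA and counts reads near the 3′ ends of transcripts. Hep-Bmal1KO mice carried floxed Bmal1 (gene symbol Arntl) alleles and a Cre recombinase driven by the albumin promoter, so that deletion was aimed at hepatocytes, and Hep-Bmal1WT mice were littermates with the same floxed alleles and no Cre. The young adult mice, of both sexes and on a C57BL/6J background, received normal chow (NC) or, for a short period, a choline-deficient high-fat diet (cdHFD), a diet used to induce steatohepatitis. Livers were collected at ZT2, 6, 10, 14, 18 and 22 (Zeitgeber time, hours after lights on), from 4 mice per genotype, diet and time, which gave 24 livers per genotype and diet. Each set of 4 held 2 males and 2 females, except Hep-Bmal1WT on cdHFD at ZT14 with 1 female. Replicates 1 and 2 were males and 3 and 4 females in most sets. On cdHFD the order was reversed at ZT2, and replicate 3 was male in the Hep-Bmal1WT set at ZT14. Leaving out a replicate of every set, as done below, thus left unequal numbers of males and females in each set.

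Elongases add carbon units to fatty acyl chains in the endoplasmic reticulum, and desaturases insert double bonds. Fads2 makes the first desaturation of dietary polyunsaturated fatty acids, Elovl5 lengthens the product, Fads1 makes the next desaturation, and Elovl2 lengthens the products further on the way to docosahexaenoic acid. Elovl1 and Elovl3 act on saturated and monounsaturated chains, Elovl1 towards the very long chains of sphingolipids, and Elovl3 is known as a gene with daily cycles in liver.

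In GRCm38.p6 (mm10), Elovl1 (ENSMUSG00000006390) lies on chromosome 4 at 118426874 to 118432953, Elovl2 (ENSMUSG00000021364) on chromosome 13 at 41182382 to 41220403, and Elovl5 (ENSMUSG00000032349) on chromosome 9 at 77917365 to 77984519. The other three are on chromosome 19. Elovl3 (ENSMUSG00000038754) spans 46131897 to 46135694, Fads1 (ENSMUSG00000010663) 10182877 to 10196874 and Fads2 (ENSMUSG00000024665) 10062765 to 10101503, so that Fads1 and Fads2 are 81.4 kb apart. Elovl1 overlaps Cdc20, which held 5998 reads over all libraries against 41212 for Elovl1. Elovl3 overlaps Pitx3, with 39 reads against 116052. The genes that overlap Elovl5 and Fads1 held 0 reads. The strand setting of the counting is not stated, so reads of overlapping genes cannot be told apart, and values of Elovl1 carry that limit.

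Libraries held between 1861740 and 9718615 reads on genes, with a median of 6412078. Levels are given in CPM, the usual scaling of a gene's reads by library size, here with TMM factors. Arntl, the targeted gene, ranged from a mean of 0.75 ± 0.46 CPM at ZT10 to 20.2 ± 4.65 CPM at ZT2 in Hep-Bmal1WT livers on NC, and from 5.74 ± 1.45 to 9.83 ± 2.55 CPM in Hep-Bmal1KO livers on NC (SD, n = 4 per time). On cdHFD the time means of Arntl spanned 0.92 to 21.2 CPM in Hep-Bmal1WT and 2.43 to 9.15 CPM in Hep-Bmal1KO livers. The profile was thus flatter in Hep-Bmal1KO livers and reads were still present. Whether the counted 3′ reads lie in the deleted part is not stated in the sources used here, and whole liver holds other cell types. By 10 clock genes and by 20 other genes, 7 libraries lay nearer to the other genotype than to the one on their label. The 20 other genes, none of them among the 6, had the smallest genotype p-values in edgeR at the other times on the same diet. They were 2 Hep-Bmal1WT and 2 Hep-Bmal1KO livers on NC and 2 Hep-Bmal1WT and 1 Hep-Bmal1KO livers on cdHFD. They are called libraries against their label below, were kept, and each result is also given without them where that changes a call. Because they were found by genotype differences in these same data, leaving them out can itself widen genotype differences. Genotype calls gained that way are a description and no independent support. In all 96 libraries Y-linked genes matched the labelled sex, and Xist did in 95. The exception, Hep-Bmal1KO cdHFD ZT10 replicate 4, was labelled female and held 4 Xist and 6 Y-linked reads, so its sex is not settled by these genes. Without it, the calls of the 6 genes in the comparisons by sex were the same. The 12 numbers in the library names, whose meaning the labels do not give, each held 1 genotype and 1 diet, so anything tied to these numbers and a group effect cannot be told apart. Nothing states that the livers of a group came from separate cages, and p-values measure the spread between these livers.

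Elovl3 differed most between livers. On NC, the 2 Hep-Bmal1WT males at each time had 1021 and 684 CPM at ZT2, 53.9 and 582 at ZT6, 56.1 and 66.4 at ZT10, 47.8 and 86.9 at ZT14, 340 and 392 at ZT18, and 790 and 651 at ZT22. The 582 CPM liver at ZT6 is a library against its label. The trough thus lay in the middle of the day and early night, and the high values at the end of the night and the start of the day. Hep-Bmal1KO males on NC had 409 and 1469 CPM at ZT2, 890 and 1243 at ZT6, 949 and 1009 at ZT10, 2139.7 and 1623 at ZT14, 2201 and 2049.9 at ZT18, and 1172 and 1604 at ZT22. At ZT6 to ZT22 both knockout males were above both control males, and at ZT2 the genotypes overlapped.

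Females had far lower Elovl3. Among Hep-Bmal1WT females on NC the lowest, median and highest values were 4.24, 7.12 and 68.9 CPM (n = 12), and the highest was a library against its label at ZT18. Among Hep-Bmal1KO females on NC they were 6.07, 17.4 and 167 CPM (n = 12), with the lowest at ZT10 in a library against its label and the highest at ZT22. On cdHFD, Elovl3 was between 3.83 and 57.2 CPM in 13 Hep-Bmal1WT males, with a median of 9.56, and between 2.69 and 14.1 CPM in 12 Hep-Bmal1KO males, with a median of 5.74. The females on cdHFD had 1.03 to 4.08 CPM (Hep-Bmal1WT, n = 11) and 1.74 to 3.97 CPM (Hep-Bmal1KO, n = 12). No library had 0 reads, but the cdHFD values rest on 8 to 349 reads per liver, so counting error is a larger share of them.

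**Figure D1:**
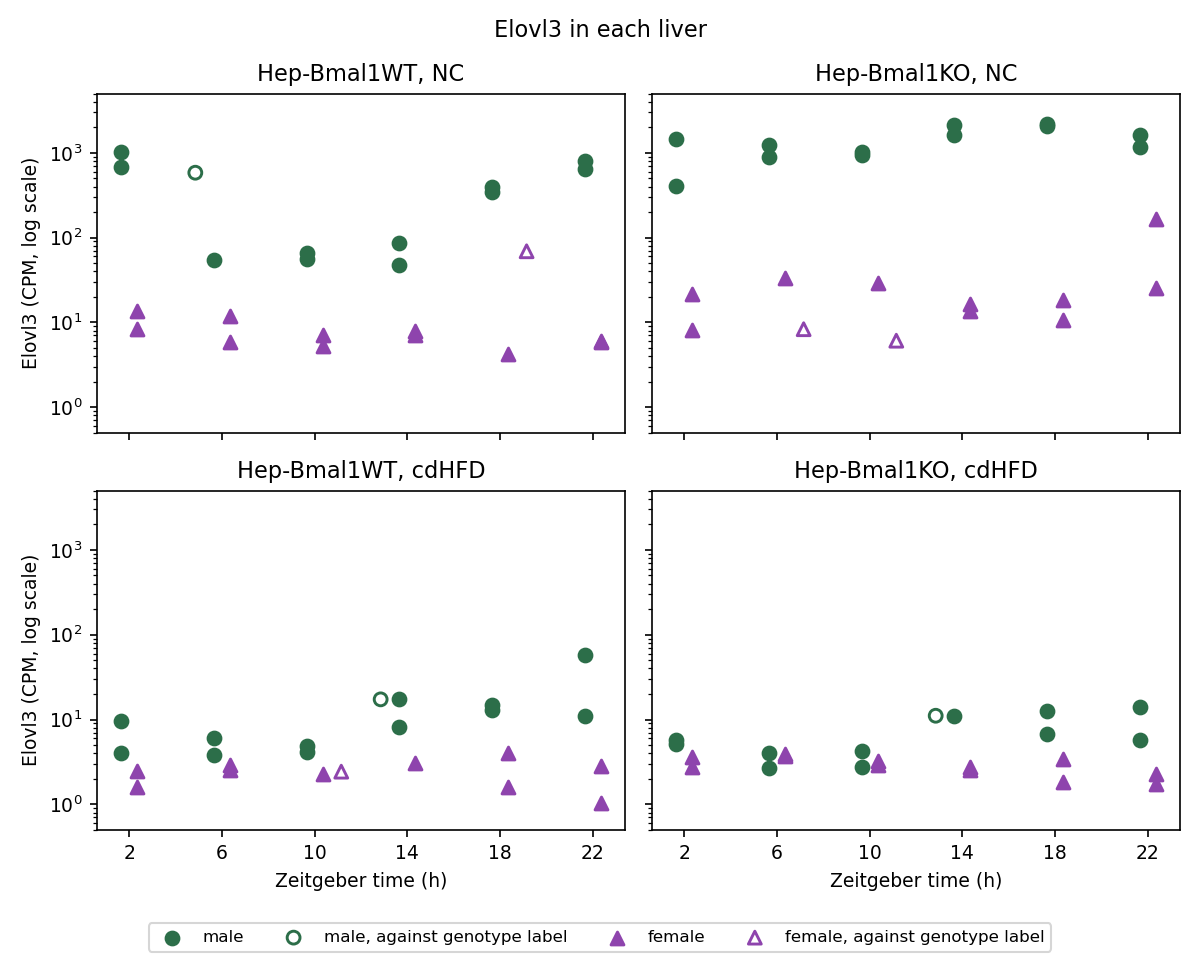
Elovl3 in each of the 96 livers, in CPM on a log axis, against Zeitgeber time in hours, with circles for males and triangles for females and open symbols for the 7 libraries against their genotype label. At each time, males on NC sit above the females of their genotype. The Hep-Bmal1WT males on NC dip to between 47.8 and 86.9 CPM at ZT10 and ZT14, and all cdHFD values are at or below 57.2 CPM.

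The diet comparison asked how the genes differed between cdHFD and NC within each genotype. Elovl2, Elovl3, Elovl5 and Fads1 fell in both genotypes, and Elovl1 and Fads2 passed the test in neither. In Hep-Bmal1WT livers 4 of 6 genes fell and 0 rose, against 27.0% of all tested genes called lower and 28.7% called higher. In Hep-Bmal1KO livers 4 of 6 fell and 0 rose, against 29.6% called lower and 32.4% called higher. The median log2 fold change of the 6 genes was -0.56 in Hep-Bmal1WT and -0.60 in Hep-Bmal1KO, against 0.01 and 0.02 over all genes.

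Elovl3 was 205 ± 308 CPM on NC and 8.27 ± 11.6 CPM on cdHFD in Hep-Bmal1WT livers (SD, n = 24), a log2 fold change of -4.36 ± 0.64 (SE, edgeR quasi-likelihood test, adjusted p = 7.9e-08). In Hep-Bmal1KO livers it was 713 ± 797 and 5.03 ± 3.55 CPM, a log2 fold change of -7.14 ± 0.69 (edgeR, adjusted p = 6.9e-13), or 141-fold lower. The large SDs hold both sexes. Among males alone the log2 fold change was -4.61 ± 0.43 in Hep-Bmal1WT and -7.68 ± 0.22 in Hep-Bmal1KO livers, and the males of the 2 diets overlapped in the former group, by the 57.2 CPM liver, and not in the latter. Among females alone it was -2.08 ± 0.35 and -2.94 ± 0.37.

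Elovl2 in Hep-Bmal1WT livers had a lowest, median and highest value of 244, 395 and 739 CPM on NC and 173, 221 and 357 CPM on cdHFD, so the ranges overlapped. It fell by 0.82 on the log2 scale (SE 0.072, edgeR adjusted p = 3.4e-14). In Hep-Bmal1KO livers the values were 276, 382 and 637 CPM against 135, 246 and 335 CPM, a fall of 0.77 (SE 0.076, edgeR adjusted p = 9.0e-13). For Elovl5 the fall was smaller: 233 ± 83.5 to 186 ± 51.7 CPM in Hep-Bmal1WT livers, log2 fold change -0.30 ± 0.13 (edgeR adjusted p = 0.041), and 304 ± 79 to 223 ± 41.2 CPM in Hep-Bmal1KO livers, -0.43 ± 0.087 (edgeR adjusted p = 2.8e-05). Without the libraries against their label the Elovl5 difference in Hep-Bmal1WT livers no longer passed (-0.28, edgeR adjusted p = 0.064), nor did it without replicate 1, 3 or 4 of every set.

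Of the desaturases, Fads1 had 307, 525 and 722 CPM as lowest, median and highest value on NC and 132, 216 and 352 CPM on cdHFD in Hep-Bmal1WT livers. Its log2 fold change was -1.18 ± 0.084 (edgeR adjusted p = 3.2e-17), and -1.26 ± 0.11 in Hep-Bmal1KO livers (edgeR adjusted p = 9.7e-15), where the values went from 293, 456 and 707 CPM to 110, 174 and 347 CPM. Fads2, its neighbour on the chromosome, was 350 ± 88.8 CPM on NC and 376 ± 103 CPM on cdHFD in Hep-Bmal1WT livers, a log2 difference of 0.10 ± 0.10 that did not pass (edgeR adjusted p = 0.44). In Hep-Bmal1KO livers the difference was 0.14 ± 0.12 (edgeR adjusted p = 0.35). Elovl1 differed by 0.10 ± 0.069 and -0.13 ± 0.077 (edgeR adjusted p = 0.22 and 0.14). With each replicate left out in turn, its difference in Hep-Bmal1KO livers ranged from -0.20 to -0.075 and passed in part of the cases.

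Markers of liver cell types moved with diet. All 6 hepatocyte markers were lower on cdHFD in both genotypes, with median log2 fold changes of -1.17 and -1.19, and their summed level ranged from 122021 to 222372 CPM on NC and from 57117 to 96533 CPM on cdHFD in Hep-Bmal1WT livers, and from 102743 to 223481 and 52364 to 92466 CPM in Hep-Bmal1KO livers. All 9 macrophage markers were higher, with medians of 2.54 and 2.62, and their summed level ranged from 206 to 581 CPM on NC and from 1017 to 2659 CPM on cdHFD in Hep-Bmal1WT livers. In Hep-Bmal1KO livers the ranges were 178 to 594 and 1458 to 3101 CPM. Of 7 stellate cell markers 6 were higher in Hep-Bmal1WT and 7 in Hep-Bmal1KO livers. Of 5 cholangiocyte markers 2 and 3 were higher, of 5 endothelial markers 3 and 3 were higher and 1 and 1 lower, and of 5 lymphocyte markers 2 and 1 were higher and 0 and 1 lower. The summed adipocyte markers, of which Plin1 and Lep were not tested, were at most 25.2 CPM on NC and at least 23.1 CPM on cdHFD. That rise was in Cidec, a lipid droplet gene, with log2 fold changes of 3.79 and 4.60. Adipoq, which defines adipocytes, was lower in Hep-Bmal1WT livers (-2.39, edgeR adjusted p = 0.013), and Retn differed by -1.58 and -0.49 and did not pass. Of 3 adipocyte markers tested, 1 was thus higher and 1 lower in Hep-Bmal1WT livers, and 1 higher and 0 lower in Hep-Bmal1KO livers. In bulk liver fewer cells of a type and less RNA per cell cannot be told apart, and the part of cell composition in the falls of Elovl2, Elovl3, Elovl5 and Fads1 was not tested.

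The genotype comparison asked how loss of hepatocyte Bmal1 bears on the genes. On NC, Elovl1 and Elovl5 were higher and Fads2 was lower in Hep-Bmal1KO livers, 3 of 6 genes, with 7.0% of tested genes called higher and 5.61% called lower. Elovl5 rose from 233 ± 83.5 to 304 ± 79 CPM, a log2 fold change of 0.40 ± 0.098 (SE, edgeR adjusted p = 0.0034). Its lowest, median and highest values were 116, 228 and 435 CPM in Hep-Bmal1WT and 176, 318 and 433 CPM in Hep-Bmal1KO livers. Elovl1 rose from 62.2 ± 20.5 to 71.2 ± 23.5 CPM, 0.20 ± 0.065 (edgeR adjusted p = 0.038). Fads2 fell from 350 ± 88.8 to 279 ± 77.3 CPM, -0.33 ± 0.10 (edgeR adjusted p = 0.024). The ranges of the genotypes overlapped for these genes. With replicate 1, 2, 3 or 4 of every set left out, Elovl1 did not pass in any of the 4 cases, Fads2 did not without replicate 1 or 4, and 1 to 2 of the 6 genes were called.

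Elovl3 had the largest fold on NC among the 6, 2.27 ± 0.80, and just missed the threshold (edgeR adjusted p = 0.053). The call changed with how sex and the libraries against their label were handled. With sex as a covariate the log2 fold change was 1.73 (edgeR adjusted p = 0.00022), among males alone 2.32 ± 0.42 (edgeR adjusted p = 0.00024), among females alone 1.12 ± 0.49 (edgeR adjusted p = 0.24), and without the libraries against their label 2.77 ± 0.85 (edgeR adjusted p = 0.018). The genotype by sex term of Elovl3 on NC did not pass (-1.07 ± 0.68, edgeR adjusted p = 0.73), so a difference between the sexes was not shown. The females on NC held libraries against their label, Hep-Bmal1WT ZT18 replicate 4 and Hep-Bmal1KO ZT6 replicate 4 and ZT10 replicate 3. Females without these libraries were not tested separately. Among males alone 4 of 6 genes were called, against 11.3% of tested genes. Elovl2, at 422 ± 125 and 420 ± 103 CPM, differed by 0.01 ± 0.073 (edgeR adjusted p = 0.97), and Fads1 by -0.18 ± 0.083 (edgeR adjusted p = 0.18). With sex as a covariate Fads1 passed as well, and Elovl2 did not.

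On cdHFD only Elovl5 passed, 1 of 6 genes, with 4.62% of tested genes called higher and 4.99% called lower. It was 186 ± 51.7 CPM in Hep-Bmal1WT and 223 ± 41.2 CPM in Hep-Bmal1KO livers, 0.28 ± 0.087 (edgeR adjusted p = 0.029). With replicate 1, 2, 3 or 4 of every set left out the difference was 0.27 to 0.31 and passed in none of the 4 cases. Fads1 (226 ± 59.0 and 189 ± 58.5 CPM) and Fads2 (376 ± 103 and 312 ± 118 CPM) differed by -0.25 ± 0.087 and -0.29 ± 0.11 (edgeR adjusted p = 0.059 and 0.090). Without the libraries against their label both passed, at -0.28 and -0.34 (edgeR adjusted p = 0.024 and 0.028). Among males alone 2 of 6 genes were called, Elovl5 and Fads1, against 5.16% of tested genes. Elovl3 differed by -0.56 ± 0.30 (edgeR adjusted p = 0.27). The stellate markers, 5 of 7 higher, and the cholangiocyte markers, 3 of 5 higher, moved with genotype on cdHFD, and their part in these values was not tested. On NC 0 of 7 and 2 of 5 were higher, and of the hepatocyte markers 1 of 6, Alb, was lower on either diet. Of the macrophage markers 3 of 9 were higher and 1 lower on cdHFD and 0 on NC, none of the endothelial and lymphocyte markers passed, and 1 of 3 tested adipocyte markers was lower on each diet.

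**Figure D2:**
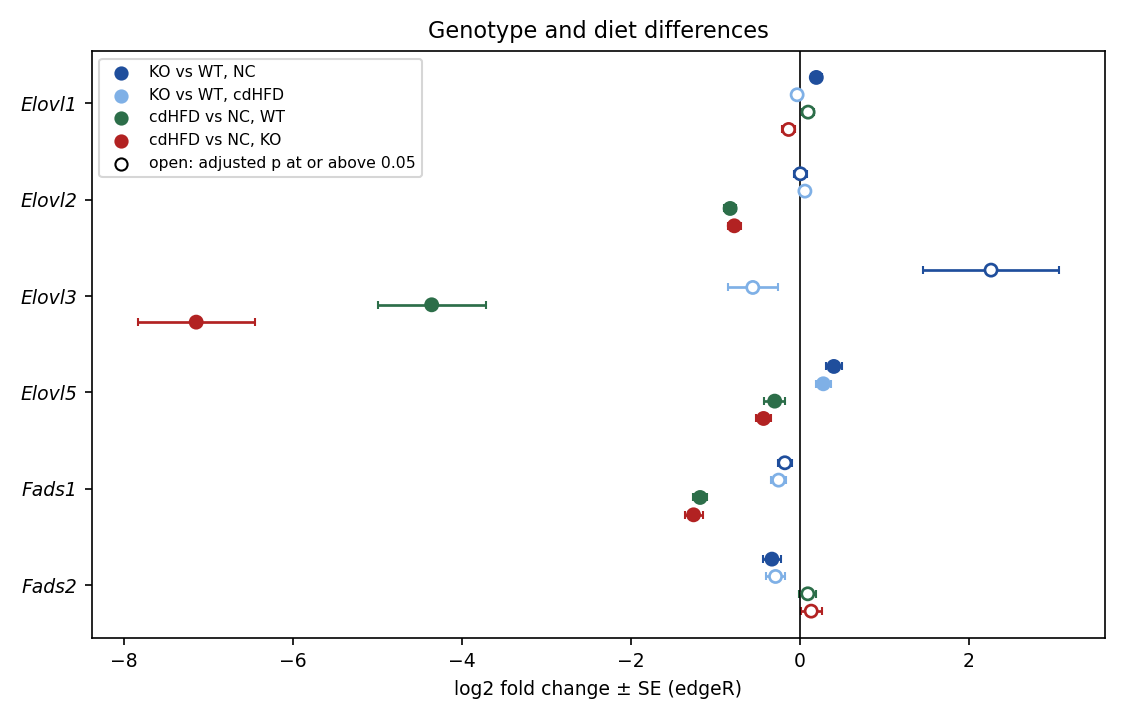
Log2 fold changes of the 6 genes with their SE from edgeR, for Hep-Bmal1KO against Hep-Bmal1WT on each diet and for cdHFD against NC in each genotype, with filled points for adjusted p under 0.05. Elovl3 reaches -7.14 for diet in Hep-Bmal1KO livers, while Elovl1 lies between -0.13 and 0.20 in all 4 comparisons.

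Whether the diet difference itself differed between genotypes was tested as a genotype by diet term. No gene of the 6 passed in edgeR, against 3.04% of tested genes, while the DESeq2 Wald test called 1, Elovl3. At unadjusted p under 0.05 edgeR had 2 of 6, for which the 3.04%, at adjusted p, is no background. For Elovl3 the term was -2.81 ± 0.89 (edgeR adjusted p = 0.062). Among males alone it was -3.0 ± 0.54 (edgeR adjusted p = 0.00033), where 3.0% of tested genes were called, and without the libraries against their label -3.34 ± 0.93 (edgeR adjusted p = 0.016). Among females alone it was -0.87 ± 0.62 (edgeR adjusted p = 0.61). On cdHFD Elovl3 held 8 to 349 reads per Hep-Bmal1WT liver and 16 to 124 per Hep-Bmal1KO liver. The cdHFD side of this term thus rests on few reads, and a genotype difference there was hard to measure.

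At single times, with 4 livers per group, edgeR called none of the 36 gene and time tests of genotype on NC, where 0.851% of all such tests were called, or on cdHFD, where 0.413% were called. At unadjusted p under 0.05 there were 7 of 36 on NC and 5 of 36 on cdHFD, and the shares above, at adjusted p, are no background for these counts. The log2 fold changes of Elovl3 on NC were 0.11, 1.75, 3.88, 4.64, 2.42 and 1.03 at ZT2, 6, 10, 14, 18 and 22. Among males alone, 2 per group and time, Elovl3 passed at ZT10, ZT14 and ZT18 with 4.02, 4.79 and 2.56, the times at which control males were lowest or rising. Among males on cdHFD, Elovl5 was higher at ZT2 and ZT6 (0.89 at each) and Fads1 lower at ZT22 (-0.83). The shares above are for both sexes. No share of all genes is given for males at single times, so these male calls have no background here, and they rest on 2 livers per group.

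Daily rhythms were tested per group by a cosine with a 24 h period, and amplitudes are given on the log2-like scale of variance-stabilised values. In Hep-Bmal1WT livers on NC, Elovl1, Elovl2 and Elovl5 were rhythmic, 3 of 6 genes, against 19.1% of tested genes. Elovl1 was 31.8, 45.8, 35.1 and 35.5 CPM at ZT10 and 97.8, 88.2, 83.4 and 106 CPM at ZT18. The times did not overlap. Its amplitude was 0.55 ± 0.066 with a peak at ZT20.5 ± 0.46 h (edgeR adjusted p = 2.1e-05). Elovl2 ran in the other direction, with 739, 643, 525 and 570 CPM at ZT6 and 244, 307, 323 and 305 CPM at ZT18, an amplitude of 0.50 ± 0.058 and a peak at ZT7.97 ± 0.44 h (edgeR adjusted p = 9.9e-06). Elovl5 had its highest mean at ZT6, 323 ± 100 CPM, and its lowest at ZT14, 159 ± 28.2 CPM, with an amplitude of 0.51 ± 0.11 and a peak at ZT4.03 ± 0.81 h (edgeR adjusted p = 0.0032), and it did not pass without replicate 1 of every set. Fads1 and Fads2 had amplitudes of 0.16 ± 0.090 and 0.19 ± 0.12 (edgeR adjusted p = 0.44 and 0.70).

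In Hep-Bmal1KO livers on NC the same 3 genes passed, 3 of 6 against 4.34% of tested genes. Elovl1 had 53.1, 43.8, 32.6 and 37 CPM at ZT10 and 113, 112, 92.2 and 120 CPM at ZT18, with an amplitude of 0.49 ± 0.089 (edgeR adjusted p = 0.0046). For Elovl2 the amplitude was 0.32 ± 0.079 with a peak at ZT6.68 ± 0.94 h (edgeR adjusted p = 0.031), and for Elovl5 0.35 ± 0.089 with a peak at ZT4.11 ± 0.98 h (edgeR adjusted p = 0.049). Without the libraries against their label Elovl5 in this group no longer passed (edgeR adjusted p = 0.059). With a replicate of every set left out, Elovl5 passed only without replicate 3, Elovl2 only without replicate 4, and Elovl1 without replicate 1, 2 or 3. The amplitude differences, Hep-Bmal1KO minus Hep-Bmal1WT, were -0.06 (95% interval -0.29 to 0.16) for Elovl1, -0.18 (-0.37 to 0.02) for Elovl2 and -0.16 (-0.44 to 0.12) for Elovl5. The test of a rhythm difference between genotypes on NC called 0 of the 6 genes (edgeR, 0 of 6 at unadjusted p under 0.05), against 0.392% of tested genes, and on cdHFD likewise 0 (edgeR, 0 of 6 at unadjusted p under 0.05), against 0.424%.

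Elovl3 did not pass in Hep-Bmal1WT livers on NC with both sexes together (edgeR adjusted p = 0.068) and did without the libraries against their label (edgeR adjusted p = 0.033). Among the 12 males alone its amplitude was 2.07 ± 0.36, a 17.6-fold difference between fitted peak and trough, with a peak at ZT23.4 ± 0.66 h (edgeR adjusted p = 0.00016). Among 12 Hep-Bmal1KO males the amplitude was 0.68 ± 0.21 and the test did not pass (edgeR adjusted p = 0.11). The test of the difference between genotypes passed for Elovl3 among males (edgeR adjusted p = 0.0073), 1 of 6 genes against 0.187% of tested genes, and the amplitude differed by -1.39 ± 0.42 (95% interval -2.27 to -0.52). On cdHFD the male test called none of the 6 in edgeR, against 0.341% at adjusted p. At unadjusted p under 0.05 it had 1 of 6. Elovl1, Elovl2, Elovl3 and Elovl5 passed the rhythm test among Hep-Bmal1WT males on NC, 4 of 6 against 6.86% of tested genes, and Elovl5 among Hep-Bmal1KO males, 1 of 6 against 1.46%.

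On cdHFD the genes that passed were not those of NC, which by itself is no test of a difference between diets. With both sexes together, the rhythm of Fads1 in Hep-Bmal1WT livers did not pass that test (edgeR adjusted p = 0.089). In Hep-Bmal1WT livers on cdHFD Fads1 alone passed the rhythm test, 1 of 6 genes against 14.6% of tested genes, which is close to that share. Fads1 had 132, 221, 136 and 175 CPM at ZT2 and 301, 296, 262 and 280 CPM at ZT22. Its amplitude was 0.36 ± 0.081 with a peak at ZT17.6 ± 0.85 h (edgeR adjusted p = 0.0041), and it did not pass without replicate 1 or 2 of every set. Fads2, with 184, 404, 150 and 282 CPM at ZT2 and 459, 552, 530 and 427 CPM at ZT14, had an amplitude of 0.35 ± 0.11 (edgeR adjusted p = 0.064) and passed without the libraries against their label (edgeR adjusted p = 0.042). In Hep-Bmal1KO livers on cdHFD edgeR called 0 of 6 genes, against 3.83% of tested genes. At unadjusted p under 0.05 there were 2 of 6, for which the 3.83%, at adjusted p, is no background. Fads1 and Fads2 there had amplitudes of 0.32 ± 0.10 and 0.43 ± 0.13 (edgeR adjusted p = 0.085 and 0.067). Among males, Elovl3, Elovl5, Fads1 and Fads2 passed in Hep-Bmal1WT livers on cdHFD, 4 of 6 against 5.84% of tested genes, and Elovl3 and Fads1 in Hep-Bmal1KO livers, 2 of 6 against 1.35%.

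The rhythms of Elovl1, Elovl2 and Elovl5 differed between diets in Hep-Bmal1WT livers, 3 of 6 genes against 6.19% of tested genes (edgeR adjusted p = 0.010, 0.027 and 0.0084). Without replicate 1 of every set none of the 3 passed, and without replicates 2, 3 and 4 in turn 2, 1 and 2 of them did. The amplitude on cdHFD minus that on NC was -0.37 ± 0.083 for Elovl1, -0.36 ± 0.092 for Elovl2 and -0.26 ± 0.16 for Elovl5. The fitted peak of Elovl5 on cdHFD was at ZT18.2 ± 1.8 h, although its rhythm there did not pass the test (edgeR adjusted p = 0.25). In Hep-Bmal1KO livers 0 of 6 genes passed in edgeR, against 0.907% of tested genes. At unadjusted p under 0.05 there were 4 of 6, for which the 0.907%, at adjusted p, is no background. The amplitude differences were -0.35 (95% interval -0.56 to -0.14) for Elovl1 and -0.30 (-0.54 to -0.06) for Elovl5. Among males 3 of 6 genes passed in Hep-Bmal1WT livers, Elovl3, Elovl5 and Fads1, against 2.97%, and 1 of 6, Fads1, in Hep-Bmal1KO livers, against 0.373%.

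**Figure D3:**
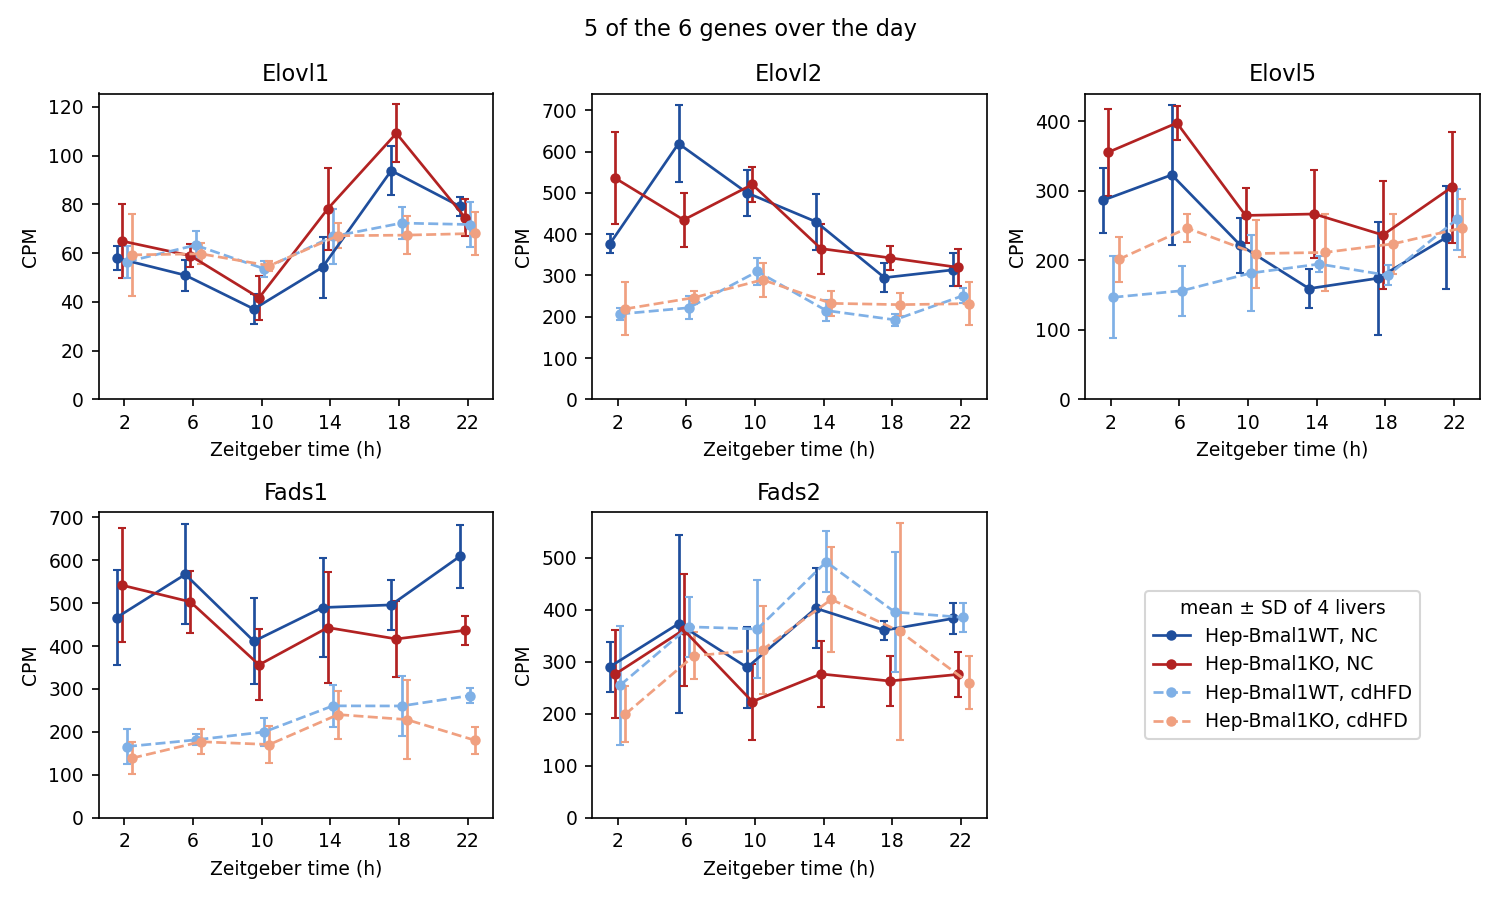
Mean CPM with SD of 4 livers against Zeitgeber time for Elovl1, Elovl2, Elovl5, Fads1 and Fads2 in the 4 groups. On NC, Elovl1 rises to 93.8 and 109 CPM at ZT18, and Elovl2 and Fads1 on cdHFD run below their NC lines at every time. For Elovl5 in Hep-Bmal1WT livers cdHFD is below NC at ZT2, ZT6 and ZT10 and above it at ZT14, ZT18 and ZT22.

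**Figure D4:**
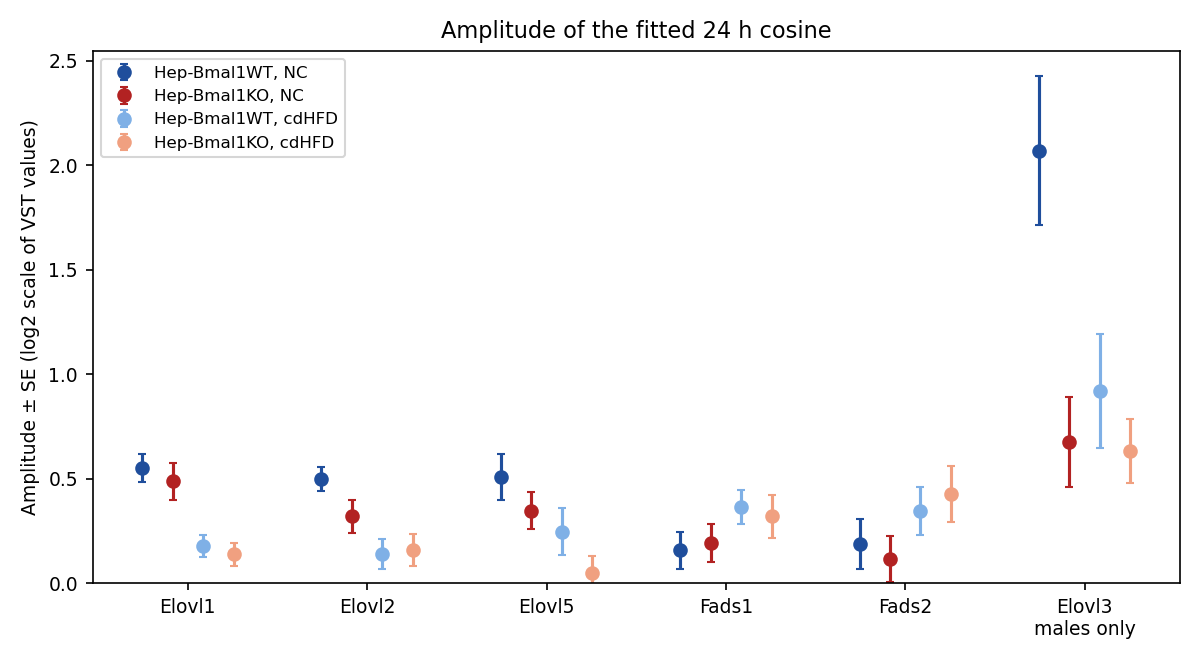
Amplitude of the fitted 24 h cosine with its SE, on the log2 scale of variance-stabilised values, for each gene and group, with Elovl3 shown for males only. Elovl3 in Hep-Bmal1WT males on NC stands at 2.07, and the amplitudes of Elovl1, Elovl2 and Elovl5 are lower on cdHFD than on NC.

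Sex was recorded for every liver, and females were compared with males within each group. Elovl3 was lower in females in all 4 groups, with log2 fold changes of -4.69 ± 0.45 (Hep-Bmal1WT NC), -5.89 ± 0.40 (Hep-Bmal1KO NC), -2.12 ± 0.31 (Hep-Bmal1WT cdHFD) and -1.18 ± 0.24 (Hep-Bmal1KO cdHFD), and edgeR adjusted p of 4.4e-09, 1.0e-11, 2.8e-05 and 0.0047. Elovl5 was higher in females in 3 groups, by 0.41 ± 0.12, 0.36 ± 0.092 and 0.45 ± 0.092 in the same order, and by 0.25 ± 0.093 in the fourth group, which did not pass (edgeR adjusted p = 0.21). Fads1 was higher in females on NC, by 0.35 ± 0.083 in Hep-Bmal1WT and 0.44 ± 0.070 in Hep-Bmal1KO livers, and Fads2 by 0.43 ± 0.097 in Hep-Bmal1KO livers on NC. Without the libraries against their label Elovl5 in Hep-Bmal1WT livers on NC did not pass (0.29, edgeR adjusted p = 0.076), and Elovl2 in Hep-Bmal1KO livers on cdHFD did (0.32, edgeR adjusted p = 0.034). With each replicate left out in turn, Elovl3 passed in all 4 cases in 3 groups, but in Hep-Bmal1KO livers on cdHFD only without replicate 1. Fads1 in Hep-Bmal1KO livers on NC passed in all 4 cases, and the other calls of Elovl5, Fads1 and Fads2 each in 2 of 4.

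The counts of genes called by sex were 3 of 6 against 11.1% of tested genes (Hep-Bmal1WT NC), 4 of 6 against 9.04% (Hep-Bmal1KO NC), 2 of 6 against 3.67% (Hep-Bmal1WT cdHFD) and 1 of 6 against 1.65% (Hep-Bmal1KO cdHFD). No gene of the 6 passed a genotype by sex term on NC (edgeR, 0 of 6 at unadjusted p under 0.05), against 0.341% of tested genes, or on cdHFD (edgeR, 2 of 6 at unadjusted p under 0.05), where 0% of tested genes passed and 1266 genes were at unadjusted p under 0.05. A diet by sex term, added after the data were seen, passed for Fads1 in Hep-Bmal1WT livers (-0.53 ± 0.15, edgeR adjusted p = 0.032), 1 of 6 against 3.11% of tested genes. In Hep-Bmal1KO livers it passed for Elovl3 (4.57 ± 0.50, edgeR adjusted p = 6.5e-09), 1 of 6 against 2.89%, where the male values fell more than the female values. On NC the median was 1356 CPM in these males and 17.4 CPM in the females. The females on cdHFD held 16 to 38 reads, so a fall as large as in males could hardly be measured. With each replicate left out in turn, the Fads1 term passed only without replicate 1, and the Elovl3 term passed in all 4 cases. The same term for Elovl3 in Hep-Bmal1WT livers was 2.32 ± 0.72 (edgeR adjusted p = 0.064), and 2.59 ± 0.67 without the libraries against their label (edgeR adjusted p = 0.016).

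**Figure D5:**
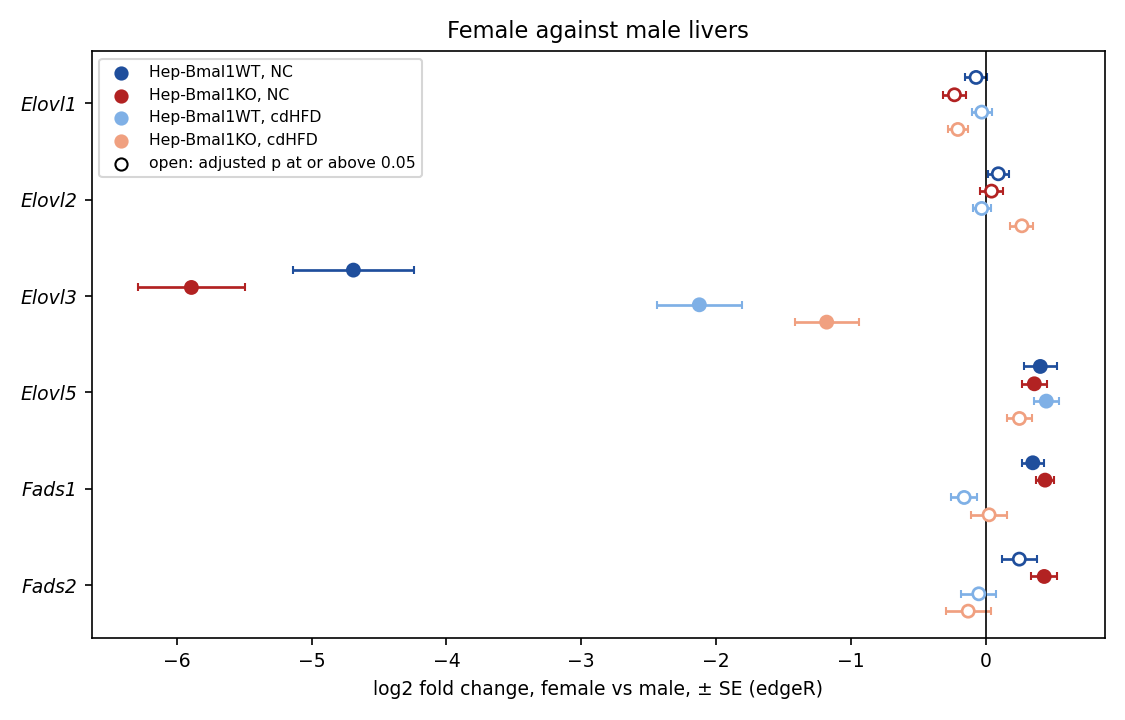
Log2 fold changes of females against males with their SE from edgeR, in the 4 groups, with filled points for adjusted p under 0.05. Elovl3 lies between -5.89 and -1.18, and the other 5 genes lie within 0.45 of 0 on the log2 scale.

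The other enzymes of elongation and desaturation, 15 of 18 tested, fell on cdHFD in 9 cases and rose in 4 in Hep-Bmal1WT livers, and fell in 10 and rose in 4 in Hep-Bmal1KO livers, with medians of -0.42 and -0.43. The background for this and the next lists is the share of all genes called in each comparison, given above, and medians over all genes of -0.01 and 0.01 for genotype on NC and cdHFD and 0.01 and 0.02 for diet. Elovl6, which elongates palmitate, fell by 1.51 and 1.90 on the log2 scale, Scd1, the main liver desaturase of stearate, by 1.84 and 1.43, and Tecr, the reductase of the last step of each elongation cycle, by 1.29 and 1.5. Hsd17b12, the reductase of an earlier step, fell by 0.53 and 0.76, and the electron carriers Cyb5b and Cyb5r3 by 1.46 and 1.69 and by 0.96 and 1.11. Elovl7 rose by 4.74 and 4.51, Hacd4 by 1.99 and 2.15, Fads3 by 1.04 and 1.55, and Scd2 by 1.59 and 0.45. Between genotypes on NC 2 rose and 0 fell, Scd2 (1.54 ± 0.24) and Tecr (0.15 ± 0.041), with a median of 0.04, so 2 of 15 called is close to the share of all genes called on NC. On cdHFD 1 rose, Scd2 (0.39 ± 0.087), and 4 fell, Elovl6 (-0.74 ± 0.16), Cyb5b (-0.29 ± 0.065), Hsd17b12 (-0.17 ± 0.043) and Cyb5r3 (-0.15 ± 0.050), with a median of -0.04. Elovl6, Fads3, Scd1 and Hsd17b12 differed between genotypes on NC by -0.36, -0.31, -0.24 and 0.06, and did not pass.

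Of the genes for activation and peroxisomal shortening of long chains, 12 of 13 tested, 6 fell and 0 rose in Hep-Bmal1KO livers on NC, 4 fell and 0 rose on cdHFD, and 7 fell and 0 rose with diet in each genotype. The medians were -0.21, -0.18, -0.40 and -0.45. The peroxisomal transporter Abcd3 differed by -0.23 and -0.24 between genotypes on NC and cdHFD and by -0.90 and -0.91 with diet in Hep-Bmal1WT and Hep-Bmal1KO livers. Hsd17b4, a peroxisomal enzyme of chain shortening, differed by -0.37, -0.22, -0.35 and -0.20 in the same order. All of these passed the edgeR test. Acsl1, a long-chain acyl-CoA synthetase, fell by 1.56 and 1.59 with diet.

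Of 11 genes for phospholipid incorporation and regulation, 2 rose and 4 fell in Hep-Bmal1KO livers on NC, 0 rose and 1 fell on cdHFD, 1 rose and 6 fell with diet in Hep-Bmal1WT, and 1 rose and 5 fell in Hep-Bmal1KO livers, with medians of -0.17, -0.13, -0.56 and -0.25. Insig2, a retention factor of the SREBP pathway, rose by 0.97 ± 0.17 between genotypes on NC, and its relative Insig1 fell by 3.03 and 3.07 with diet. Srebf1, which encodes SREBP1, fell by 0.56 and 0.62 and Scap, the SREBP escort protein, by 1.05 and 1.14 with diet. Mlxipl, which encodes ChREBP, was lower in all 4 comparisons, by -0.57, -0.66, -1.17 and -1.26. The clock repressors Nr1d1 and Nr1d2 differed by -1.03 ± 0.26 and -1.30 ± 0.24 between genotypes on NC, both passing, and Nr1d2 rose by 0.73 with diet in Hep-Bmal1KO livers. Of the 10 clock genes, which were used to check the labels, 3 were higher and 2 lower on NC, and 1 higher and 1 lower on cdHFD, in Hep-Bmal1KO livers, and 0 higher and 2 lower, and 2 higher and 5 lower, with diet in Hep-Bmal1WT and Hep-Bmal1KO livers.

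The genes whose log2 CPM over the 96 libraries ran most like that of each gene were found by Spearman correlation, as a description, since the libraries share diet, sex and depth. For Elovl3 they were Cyp7b1 (0.928), Ugt2b1 (0.895) and C8b (0.894). For Fads1 they were Aass (0.915), F10 (0.907) and Aldh4a1 (0.901), and for Elovl2 Upb1 (0.891), Klkb1 (0.885) and Afm (0.881). Lower values were found for Elovl1, led by Scamp3 (0.779), Nabp2 (0.778) and Mrpl36 (0.768), for Elovl5, led by Camk1d (0.715), Amt (0.696) and Gm4952 (0.693), and for Fads2, led by Acadl (0.627), As3mt (0.620) and Perp (0.602).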

How the data were processed

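RNA of 96 mouse livers was measured by BRB-seq. The authors deposited raw read counts per gene in 1 table, and the submitters' processing notes name STAR, HTSeq, featureCounts and DESeq2 and the build mm10. Whether molecular barcodes were collapsed and which strand was counted are not given in the sources used here. Rows for reads not aligned (14.8 to 34.0% of a library, median 18.1%) and for reads on no gene (5.65 to 11.3%, median 7.93%) were left out.

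Samples were grouped by the labelled genotype, diet, sex and time. Genes with at least 100 counts summed over all libraries were kept. Counts were scaled by TMM and tested with edgeR 4.0.16 (quasi-likelihood, R 4.3.3), with Zeitgeber time as a factor for genotype, diet and sex, and with cosine and sine terms of a 24 h period for rhythms. Adjusted p-values are Benjamini-Hochberg over all tested genes, called under 0.05. Shares of tested genes called are at this threshold, so they are no background for counts at unadjusted p. Amplitudes came from cosine fits to variance-stabilised values (DESeq2 1.42.0). The scripts were tested on simulated data. Library labels were checked on 10 clock genes and on 20 other genes picked by genotype tests in these same data. The alternatives were other scaling, filters, DESeq2, sex as a covariate and leaving out replicates, and, chosen after seeing the data, single sexes and leaving out libraries against their label or the 1 library that lacks Xist.

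The 6 genes and the lists of elongation and desaturation enzymes, activation and peroxisomal genes, regulators, clock genes and markers of hepatocytes, macrophages, stellate cells, cholangiocytes, endothelial cells, adipocytes and lymphocytes were chosen with earlier results of these data known. List genes were named by a set of 9 genes fixed by name, of which 1 is not reported here, and where called in all 4 genotype and diet comparisons or where a called difference reached 1 on the log2 scale in either direction. No sequences were printed, since none was given.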

Additional observations from a re-analysis of the deposited data

Results flagged for a closer look

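In 5 of 144 sets of 4 livers, 1 liver stood apart from the other three by its gap relative to the range of the set, which chance gives in about 1 in 20 sets. Elovl2 was lowest at 418 CPM in Hep-Bmal1WT NC ZT10 replicate 1 and at 185 CPM in Hep-Bmal1WT cdHFD ZT2 replicate 4. Elovl5 was highest at 309 CPM in Hep-Bmal1KO cdHFD ZT22 replicate 3, and Fads1 was lowest at 386 CPM in Hep-Bmal1KO NC ZT22 replicate 2. Fads2 was highest at 332 CPM in Hep-Bmal1KO NC ZT10 replicate 3, which is a library against its label.

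The rhythm differed between diets in Hep-Bmal1WT livers for Elovl1, Elovl2 and Elovl5 (edgeR adjusted p = 0.0104, 0.0266 and 0.00841). The diet difference differed between the sexes for Fads1 in Hep-Bmal1WT livers, by -0.53 on the log2 scale, and for Elovl3 in Hep-Bmal1KO livers, by 4.57.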

How the results depend on the processing

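For genotype on NC, 3 genes became 5 with sex as a covariate, 1 for females alone, and 1 to 2 when each replicate was left out. For genotype on cdHFD, 1 became 3 with no filter beyond 1 count and without libraries against their label, 2 for males alone with or without those libraries and with DESeq2, and 0 for females alone and with each replicate left out. Genotype by diet went from 0 to 1 with no filter, without libraries against their label, for males alone with or without those libraries, and with DESeq2. At single times, 0 of 36 on NC became 1 with 10 counts in 24 libraries, 4 with sex as a covariate, 2 without libraries against their label, 3 for males, 7 for males without those libraries and 1 for females. On cdHFD it became 3 with no filter and for males with or without libraries against their label, and 1 with sex as a covariate.

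Rhythms in Hep-Bmal1WT livers on cdHFD went from 1 to 3 with no filter, 2 with sex as a covariate, without libraries against their label and by the cosinor F test at unadjusted p under 0.01, 4 for males with or without those libraries, 0 for females and 0 to 2 with a replicate left out. Those in Hep-Bmal1KO livers on NC went from 3 to 1 for males, males without libraries against their label and females, and to 1 to 2 with a replicate left out. On cdHFD they went from 0 to 1 with no filter and to 2 for males, for males without those libraries and with edgeR at unadjusted p under 0.01. The rhythm difference between genotypes on NC went from 0 to 1 for males with or without those libraries. Between diets it went from 3 to 0 for females and to 0 to 2 with a replicate left out in Hep-Bmal1WT livers, and from 0 to 1 with sex as a covariate and for males in Hep-Bmal1KO livers. Sex calls with a replicate left out ranged from 1 to 4 and 1 to 2 in Hep-Bmal1WT livers on NC and cdHFD, and from 2 to 4 and 0 to 1 in Hep-Bmal1KO livers, where on cdHFD 1 became 2 with no filter and without libraries against their label. Genotype by sex went from 0 to 1 on each diet with no filter. Diet by sex went from 1 to 2 with no filter and without libraries against their label and to 0 to 1 with a replicate left out in Hep-Bmal1WT livers, and from 1 to 3 with no filter in Hep-Bmal1KO livers.

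Log2 differences that changed sign were all of values that had not passed the test. For females alone, Elovl2 was -0.011 and Elovl3 0.25 between genotypes on NC and cdHFD, and Fads2 was -0.050 and -0.15 between diets in Hep-Bmal1WT and Hep-Bmal1KO livers and -0.11 for genotype by diet. For males alone, Elovl1 was 0.057 and Elovl2 -0.087 between genotypes on cdHFD, and Elovl2 -0.12 for genotype by diet. Without libraries against their label these male values were 0.073, -0.12 and -0.17, and Elovl5 was 0.053 for genotype by diet. With both sexes and without those libraries, Fads2 was 0.0065 for sex in Hep-Bmal1WT livers on cdHFD, Elovl5 0.17 for genotype by sex on NC and 0.0026 for diet by sex in Hep-Bmal1WT livers, and Elovl1 -0.046 for diet by sex in Hep-Bmal1KO livers. Elovl1 for diet by sex in Hep-Bmal1WT livers was -0.0017 with DESeq2 size factors and -0.0023 with no filter. Without the library that lacks Xist, an alternative chosen after seeing the data, Fads1 for sex in Hep-Bmal1KO livers on cdHFD was -0.024 and Elovl1 for diet by sex in Hep-Bmal1KO livers -0.013.

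With a replicate left out, ranges crossed 0 for Elovl2 (-0.046 to 0.052, genotype on NC), for Fads2 (-0.049 to 0.20 and -0.0037 to 0.25, diet in Hep-Bmal1WT and Hep-Bmal1KO livers), and for Elovl2 and Fads2 (-0.014 to 0.16 and -0.054 to 0.085, genotype by diet). They did so for sex in Elovl1 (-0.17 to 0.024) in Hep-Bmal1WT livers on NC, in Elovl1 and Elovl2 (-0.073 to 0.018 and -0.090 to 0.031) on cdHFD, in Elovl2 (-0.076 to 0.16) in Hep-Bmal1KO livers on NC and in Fads1 (-0.026 to 0.097) on cdHFD. For genotype by sex on NC they did so in Elovl2 and Elovl5 (-0.17 to 0.12 and -0.067 to 0.018). For diet by sex the ranges were -0.099 to 0.12 (Elovl1) and -0.14 to 0.16 (Elovl5) in Hep-Bmal1WT livers, and -0.091 to 0.11 (Elovl1) and -0.17 to 0.0057 (Elovl5) in Hep-Bmal1KO livers. The causes were not tested. No paired analysis was possible because replicate numbers were given in accession order and pair no livers. The numbers follow sex in most sets, so runs with a replicate left out also shift the balance of the sexes. Depth limits Elovl3 on cdHFD, with 8 to 349 reads per liver.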
